A study of Homo sapiens with 24 samples.

Results

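The genes described here are those of the HLA class I heavy chains HLA-B, HLA-C, HLA-E, HLA-F and HLA-G, their light chain B2M, the peptide transporter subunits TAP1 and TAP2, and TAPBP, which encodes tapasin. They were chosen by name, and every gene spot of the arrays that carried a listed name was taken. This gave 9 of 30982 gene names and 23 of 41000 probes. At least 1 probe of each of the 9 genes, and 20 of the 23 probes, were bright enough to be tested.

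U87 cells are an established human glioblastoma line, and Si306 is an inhibitor of SRC family kinases. RNA was collected 24 h after proton therapy (PT) and compared on 2-colour Agilent arrays in 4 configurations. In U87 2 Gy and U87 10 Gy, cells given 2 or 10 Gy of protons were set against untreated cells. In the Si306 configurations, named U87 Si306 + 2 Gy and, for the higher dose, U87 Si306 + 10 Gy, cells given 10 µM Si306 and protons were set against cells given the same dose of PT alone. Treated RNA carried the red dye Cy5 and control RNA the green dye Cy3 on every array, with no dye swap. Si306 without protons was not among the configurations. All RNA came from 1 cell line, and in RNA of whole cultures fewer cells with a transcript and less of it per cell cannot be told apart.

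The 24 deposited tables were labelled as biological replicates, but their headers named 8 arrays scanned 3 times each, 2 arrays per configuration. The 2 configurations of PT alone lay on 1 slide and both Si306 configurations on the other. In 2 cases a scan carried the label of 1 dose of PT alone and lay on an array of the other dose, and these scans were left out. Each value below is the mean over the remaining scans of an array. Whether the 2 arrays of a configuration held RNA of separate cultures is not given in the sources used here, so the p-values measure the spread between arrays, which may be technical. CDKN1A, a p53 target that arrests the cell cycle, was 0.38 higher on the log2 scale in U87 2 Gy and 1.20 higher in U87 10 Gy. MDM2, a p53 target that feeds back on p53, changed by -0.21 and 0.10. All 7 markers of mesenchymal glioblastoma cells were above background. CDKN2A, a locus known to be deleted in U87, was also read above background and was 0.82 and 0.73 higher in the Si306 configurations. What its probe hybridized with was not tested.

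HLA class I molecules display peptides from inside the cell to cytotoxic T cells. A heavy chain folds with beta-2 microglobulin in the endoplasmic reticulum, where TAP1 and TAP2 together pump in peptides that the proteasome has made, and tapasin holds the empty molecule at the transporter until a peptide is bound. Interferons raise these genes through factors such as IRF1 and NLRC5, and glioma cells are known to vary in how much class I they show.

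The heavy chains are close relatives, and the array read them with short probes of 60 bases. The probe pair most alike between different genes is shown here because it limits how far HLA-B and HLA-F can be read apart. Capitals mark the bases that are equal when both are aligned without gaps, 49 of 55, with a longest run of 20. The first lies at chr6:31431079-31431138 and the second at chr6:29800992-29801051 in hg17, the build of the scanner files.
HLA-B A_23_P125107: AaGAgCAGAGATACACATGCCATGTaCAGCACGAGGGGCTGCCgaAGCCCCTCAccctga
HLA-F A_23_P145264: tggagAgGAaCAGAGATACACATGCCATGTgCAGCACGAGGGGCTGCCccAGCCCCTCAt

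Of 231 probe pairs from different members, 8 shared a run of 10 or more bases. Among them were the bright probe of HLA-G, at chr6:29906673-29906732, and the HLA-C probe at chr6:31429768-31429819. The matching stretches are given because the other 2 HLA-G probes were too dim to be tested, so that all that is reported for HLA-G rests on this probe. Capitals mark runs of 8 or more bases present in both.
HLA-G A_24_P311926: gggctgGGATGTCTCCgTCTCTGTCTCAA
HLA-C A_23_P113716: gggctGGATGTCTCCaTCTCTGTCTCAAc
The HLA-C probe also has coordinates next to those of the HLA-B probes rather than at the other HLA-C probes, and so has A_23_P95917. Which transcripts these probes caught was not tested.

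Further probes are printed in full because they carried the largest changes of the members, or stood for the light chain. The HLA-C probe lies at chr6:31347078-31347387, a span of 310 bases in hg17 for a sequence of 60, so its target is split in the genome. The HLA-E probe lies at chr6:30566046-30566105 and the B2M probe at chr15:42795065-42795124.
HLA-C A_23_P70539: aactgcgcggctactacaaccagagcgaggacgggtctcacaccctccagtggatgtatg
HLA-E A_23_P30848: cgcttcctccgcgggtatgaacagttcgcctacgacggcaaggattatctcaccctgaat
B2M A_23_P37441: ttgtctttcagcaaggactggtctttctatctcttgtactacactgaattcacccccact

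With PT alone, the class I genes were higher under each of the 4 scalings described here, by amounts that depended on the scaling. By the brightest probe of each name and with loess, 8 of 9 members were higher in U87 2 Gy (adjusted p under 0.05, limma, over all genes) and 9 of 9 in U87 10 Gy, and none was lower. Over all genes tested, 32.1% were higher and 24.9% lower in U87 2 Gy, and 31.1% and 26.2% in U87 10 Gy. The median log2 fold change of the members was 0.42 at 2 Gy and 0.34 at 10 Gy, against 0.02 and 0.02 for all genes. With loess HLA-B led at 2 Gy and TAPBP at 10 Gy, and no member reached 2-fold by its brightest probe, as 0.681% and 0.82% of all genes did upward. With each array centred on its median instead, 8 and 9 members were again higher, as were 59.3% and 57.5% of all genes, and the values were 0.11 for TAP2, 0.75 for TAP1 and 0.93 for HLA-F to 1.39 for HLA-B at 2 Gy, and 0.22, 0.64 and 0.72 for HLA-F to 1.17 for HLA-G at 10 Gy. Under that scaling 6 members at 2 Gy and 4 at 10 Gy were past 2-fold, as were 4.88% and 3.36% of all genes. It placed the members other than TAP2 above 0 with Si306 added too, so its sign here is not particular to PT alone. Without a dye swap, a dye effect of a probe and an effect of the treatment cannot be told apart within a configuration.

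Adding Si306 to PT was accompanied by values of the other sign. With loess, which removes the part of the log ratio that varies with spot brightness, 8 of 9 members were lower by their brightest probe at 2 Gy and 6 of 9, TAP2 among them, at 10 Gy, with none higher, whereas with each array centred on its median 8 were higher and 1 was lower in both. With median centring 63.5% of all genes were called higher at 2 Gy and 59.4% at 10 Gy. With loess 38.5% of all genes were higher and 27.8% lower with Si306 at 2 Gy, and 35.1% and 27.1% at 10 Gy. The loess medians of the members were -0.32 and -0.20, against 0.04 and 0.03 for all genes. None was lower by 2-fold, as 0.157% and 0.0829% of all genes were. PT alone is the treated condition of the first pair of configurations and the control condition of the second pair, so the opposite signs are not taken as independent.

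The choice of scaling weighs on bright probes. The mean log2 intensity of the members' probes was 10.57 for TAPBP, 13.13 for TAP1, 14.12 to 16.67 for B2M and the heavy chains, and 6.82 for TAP2. At these intensities loess took away 0.96 to 2.72 log2 units from the ratios of TAPBP, TAP1, B2M and the heavy chains and 0.25 to 0.77 from those of TAP2, more than any of their changes. Median centring without loess put the median of all genes at 0.27 and 0.22 for PT alone at 2 and 10 Gy, and at 0.43 and 0.26 once Si306 was added. Relative to that median, the members other than TAP2 lay from 0.41 to 1.12 higher in the configurations of PT alone. With Si306 they lay from 0.03 for HLA-B at 10 Gy to 0.85 for HLA-G at 2 Gy above it, with HLA-C at 0.75 and 0.71. TAP2 was at -0.16 and -0.0004 in PT alone, and its Si306 values are left out since its control channel was not well above background on 3 of those 4 arrays. The log ratio of the scanner software, which has its own intensity-dependent step, gave 8 and 9 members higher in PT alone, against 26.3% and 25.5% of all genes, and 8 and 8 members lower with Si306, against 28.8% and 26.9%. Loess without background subtraction gave 9 and 9 higher, against 33.7% and 32.7%, and 8 and 6 lower, against 28.2% and 28%.

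**Figure D1:**
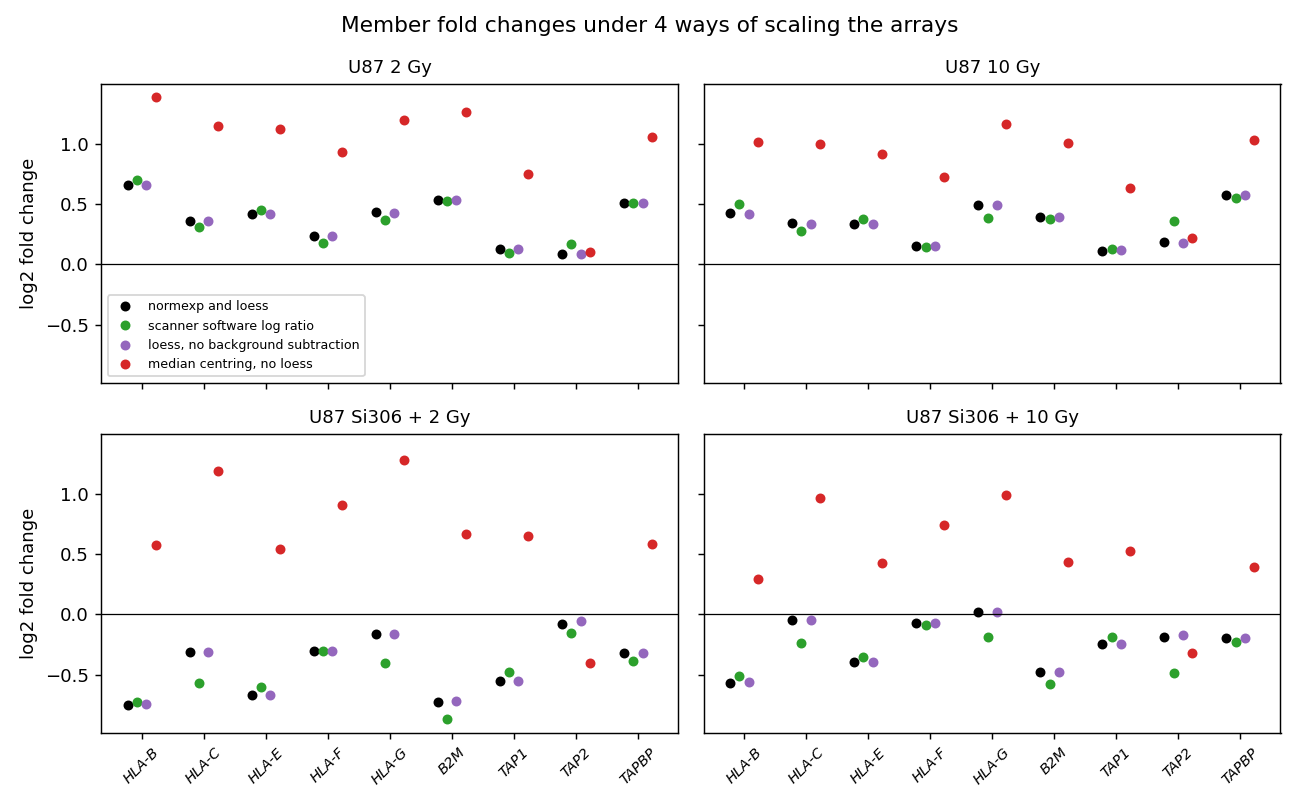
log2 fold change of each member in the 4 configurations, 1 panel each, under 4 scalings shown by colour; each point is the mean of the arrays of a configuration. In the upper panels all points lie above 0, and in the lower panels median centring places every member except TAP2 above 0 while the other scalings place all below it, except HLA-G in U87 Si306 + 10 Gy, which lies at 0.02 with loess.

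HLA-B, a classical heavy chain that presents peptides to T cells, gave log2 ratios of 0.65 and 0.68 with PT alone at 2 Gy and 0.47 and 0.38 at 10 Gy, and -0.74 and -0.76 with Si306 added at 2 Gy and -0.57 and -0.55 at 10 Gy. All arrays of PT alone lay above 0 and all arrays with Si306 below it, without overlap. The gene rose by 0.66 ± 0.034 (SE, n = 2 arrays; adjusted p = 7.28e-08) and 0.42 ± 0.034 (adjusted p = 1.48e-06) with PT. With Si306 it was lower by -0.75 (adjusted p = 2.53e-08) and -0.56 (adjusted p = 2.15e-07) with loess, and 0.57 and 0.29 higher with median centring. Its second probe gave 0.66, 0.50, -1.02 and -0.74 in the same order, so both probes carried the same signs.

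HLA-C is the other classical heavy chain measured here and is also read by killer-cell receptors. Its brightest probe gave 0.36 and 0.36 with PT alone at 2 Gy and 0.36 and 0.32 at 10 Gy, and -0.30 and -0.32 with Si306 added at 2 Gy and -0.06 and -0.03 at 10 Gy. The arrays of PT alone were high and close together, and those of U87 Si306 + 10 Gy lay near 0. It rose with PT by 0.36 ± 0.031 (adjusted p = 2.90e-06) and 0.34 ± 0.031 (adjusted p = 4.00e-06). With loess it was lower with Si306 at 2 Gy (-0.31, adjusted p = 6.40e-06) and not called at 10 Gy (-0.05, adjusted p = 0.223), and with median centring it was 1.19 and 0.96 higher. By the log ratio of the scanner software it was lower at both doses (-0.57 and -0.24). The other 3 HLA-C probes were all called lower in U87 Si306 + 10 Gy with loess. A_23_P70539 was lower by -0.81, A_23_P95917 by -0.64 and A_24_P298409 by -0.21 (limma, adjusted p = 4.24e-08, 3.73e-07 and 0.000984 over all probes). Whether HLA-C was called there thus depended on the probe. The brightest probe and A_23_P95917 have coordinates next to those of the HLA-B probes, unlike A_23_P70539 and A_24_P298409. What is given for HLA-C by its brightest probe is limited by this.

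HLA-E presents leader peptides of other class I chains to receptors of natural killer cells. The brightest probe gave 0.32 and 0.52 with PT alone at 2 Gy and 0.29 and 0.38 at 10 Gy. With Si306 added it gave -0.67 on the single array that measured it at 2 Gy, and -0.41 and -0.38 at 10 Gy. On the other array of U87 Si306 + 2 Gy its spots were outliers, so the value there rests on 1 array and a spread borrowed from the others. The rise with PT was 0.42 ± 0.047 (adjusted p = 3.69e-05) and 0.34 ± 0.047 (adjusted p = 0.000162). With loess the Si306 values were -0.67 ± 0.067 (adjusted p = 1.26e-05) and -0.40 ± 0.047 (adjusted p = 4.84e-05), and with median centring they were 0.54 and 0.43.

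HLA-F is a non-classical chain that can reach the surface without peptide. Its brightest probe gave 0.23 and 0.25, then 0.17 and 0.14, in PT alone at 2 and 10 Gy, and -0.33 and -0.27, then -0.03 and -0.11, with Si306. The rise was 0.24 ± 0.034 (adjusted p = 0.000142) at 2 Gy and 0.15 ± 0.034 (adjusted p = 0.00295) at 10 Gy, where the value without array 1 was 0.14 and not called. With Si306 and loess it was lower at 2 Gy (-0.30, adjusted p = 1.82e-05) and missed the threshold at 10 Gy (-0.07, adjusted p = 0.102), and with median centring it was 0.91 and 0.75 higher. The other tested HLA-F probe, A_23_P145264, which shares the sequence shown above with an HLA-B probe, gave 0.38, 0.37, -0.83 and -0.61 in U87 2 Gy, U87 10 Gy and the Si306 configurations at 2 and 10 Gy with loess. It was called in each, with an adjusted p of 2.43e-07 over all probes in U87 Si306 + 10 Gy, so its values lay farther from 0 than those of the brightest probe.

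HLA-G, best known from the placenta, gave 0.42 and 0.44 with PT alone at 2 Gy and 0.49 and 0.50 at 10 Gy, and -0.16 and -0.16 with Si306 added at 2 Gy and 0.03 and 0.01 at 10 Gy. The rise with PT was 0.43 ± 0.030 (adjusted p = 6.79e-07) and 0.49 ± 0.030 (adjusted p = 1.96e-07). With Si306 at 2 Gy it was lower with loess (-0.16, adjusted p = 0.000691) and with the scanner software's log ratio (-0.40), and 1.28 higher with median centring. At 10 Gy the value was 0.02 with loess (adjusted p = 0.617), -0.18 by the scanner software's log ratio and 0.99 with median centring, so its sign there turned with the scaling. The 2 HLA-G probes without sequence shared with HLA-C were at background, apart from the Cy5 channel of A_23_P300112 on array 2 of U87 Si306 + 10 Gy.

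B2M encodes beta-2 microglobulin, the light chain that every class I heavy chain needs to leave the endoplasmic reticulum. It gave 0.52 and 0.55 with PT alone at 2 Gy and 0.37 and 0.41 at 10 Gy, and -0.73 and -0.72 with Si306 added at 2 Gy and -0.48 and -0.48 at 10 Gy. Arrays of 1 configuration lay within 0.05 of each other. The rise with PT was 0.53 ± 0.031 (adjusted p = 1.74e-07) and 0.39 ± 0.031 (adjusted p = 1.34e-06). With Si306 the values were -0.72 (adjusted p = 1.66e-08) and -0.48 (adjusted p = 3.42e-07) with loess, and 0.66 and 0.44 with median centring. The second B2M probe, which the files tie to another transcript, was dim and gave -0.05, -0.13, -0.10 and -0.13.

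TAP1, a subunit of the peptide transporter, gave the smallest rises among the members called in PT alone with loess. Its log2 ratios were 0.13 and 0.12 with PT alone at 2 Gy and 0.11 and 0.12 at 10 Gy, and -0.52 and -0.59 with Si306 added at 2 Gy and -0.24 and -0.26 at 10 Gy. The rises of 0.13 ± 0.032 (adjusted p = 0.00611) and 0.11 ± 0.032 (adjusted p = 0.0101) became 0.75 and 0.64 with median centring, and the call at 10 Gy was lost without either of its arrays. With Si306 TAP1 was lower with loess, -0.55 (adjusted p = 1.21e-07) and -0.25 (adjusted p = 5.38e-05), and 0.65 and 0.52 higher with median centring.

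TAP2, the partner subunit, was read by a dim probe. It gave 0.08 and 0.10 in U87 2 Gy and 0.18 and 0.18 in U87 10 Gy, a mean of 0.09 that missed the threshold (adjusted p = 0.0702) and a rise of 0.18 ± 0.037 (adjusted p = 0.00144), which was 0.36 by the log ratio of the scanner software. In the Si306 configurations its control channel was not well above background on either array of U87 Si306 + 2 Gy and on 1 of the 2 arrays of U87 Si306 + 10 Gy. No fold is drawn from its log ratios of -0.05 and -0.12 at 2 Gy, and the mean of -0.18 at 10 Gy (adjusted p = 0.00136), which was -0.49 by the log ratio of the scanner software and -0.32 with median centring, includes that array. The array that measured both channels gave -0.12, and without array 2 of U87 Si306 + 10 Gy the call was lost.

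TAPBP encodes tapasin, which bridges the transporter and the heavy chain and edits the bound peptide. The brightest of its 4 probes gave 0.50 and 0.53 with PT alone at 2 Gy and 0.57 and 0.58 at 10 Gy, and -0.30 and -0.34 with Si306 added at 2 Gy and -0.21 and -0.19 at 10 Gy. It rose with PT by 0.51 ± 0.031 (adjusted p = 2.48e-07) and 0.57 ± 0.031 (adjusted p = 8.11e-08). With Si306 it was lower with loess, -0.32 (adjusted p = 5.60e-06) and -0.20 (adjusted p = 0.000239), and 0.58 and 0.39 higher with median centring. The other 3 probes, tied by the files to other transcript variants, were dim. In U87 2 Gy A_23_P259580 gave 0.17 and A_23_P315336 gave 0.08. A_23_P360291 gives no fold there, since its control channel was not well above background.

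**Figure D2:**
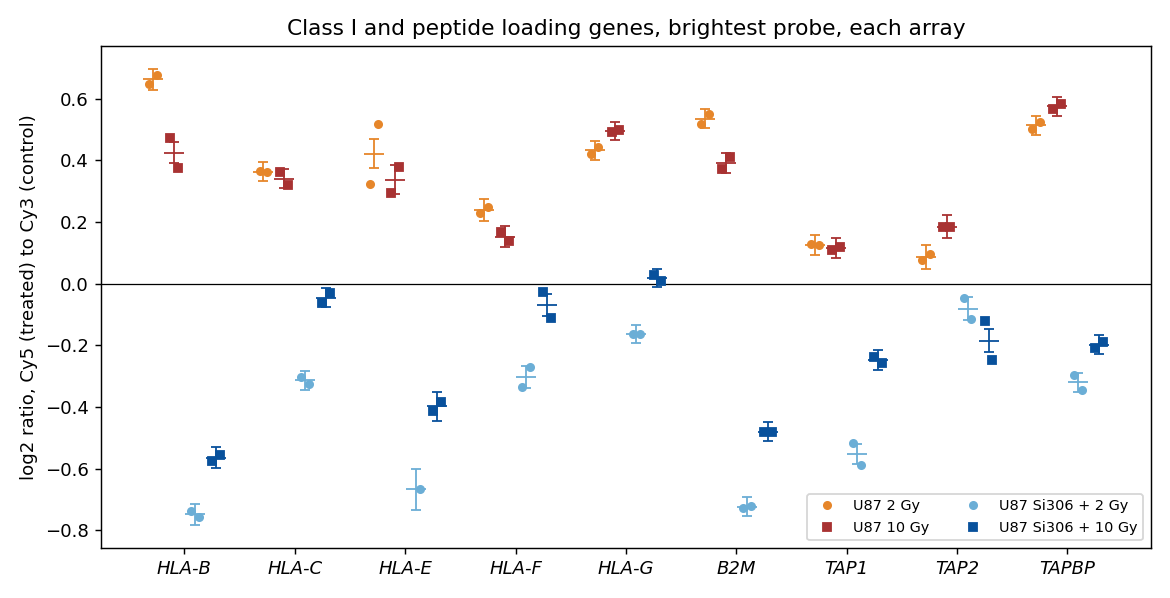
log2 ratio of Cy5 (treated) to Cy3 (control) after loess for the brightest probe of each member; each point is an array, and horizontal bars with whiskers give the mean and its SE in each of the 4 configurations. All points of PT alone lie above 0, those with Si306 lie below 0 except HLA-G in U87 Si306 + 10 Gy, a side that turns with median centring for every member except TAP2 and HLA-G at 10 Gy; HLA-E has 1 point in U87 Si306 + 2 Gy, and the control channel of TAP2 was not well above background on 3 of the 4 Si306 arrays.

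Probes of a gene agreed in sign more than in size. Of the 20 tested probes, 16 were higher and 0 lower in U87 2 Gy, and 17 were higher and 1 lower in U87 10 Gy. Over all probes, 32.1% and 31.4% were higher and 25.1% and 26.8% lower. With Si306 and loess, 15 were lower and 0 higher at 2 Gy, and 14 were lower and 1 higher at 10 Gy, against 28.5% and 27.8% of all probes lower and 36.3% and 33.1% higher. The probe lower in U87 10 Gy was the second B2M probe, and the probe higher in U87 Si306 + 10 Gy was TAPBP A_23_P315336 (0.14). With loess and within single configurations, changes past 2-fold were found only among probes other than the brightest of a gene. HLA-E A_23_P30848, printed above, gave 1.39 and 1.34 in U87 2 Gy and 1.28 and 1.37 in U87 10 Gy, while the other 2 HLA-E probes gave means of 0.42 and 0.27 at 2 Gy. HLA-C A_23_P70539 gave 1.33 on the array of U87 2 Gy that measured it and 1.17 and 1.20 in U87 10 Gy. With Si306 at 2 Gy and loess, HLA-C A_23_P70539 gave -1.15 and -1.11 and HLA-B A_23_P125107 gave -1.03 and -1.01.

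The probes of a gene also differ in base composition. HLA-C probes of 38.3%, 48.3%, 55% and 58.3% GC gave log2 fold changes of 0.21, 0.36, 0.67 and 1.33 in U87 2 Gy, and HLA-E probes of 40%, 53.3% and 55% GC gave 0.27, 0.42 and 1.37. HLA-F probes of 51.7% and 60% GC gave 0.24 and 0.38. In these genes the values of U87 2 Gy were in the order of GC content, which the remaining genes with several tested probes did not show. The order did not hold throughout the other configurations. In U87 10 Gy the HLA-E probes of 40% and 53.3% GC gave 0.35 and 0.34. In U87 Si306 + 10 Gy the HLA-C probes of 38.3% and 48.3% GC gave -0.21 and -0.05. HLA-B probes of 58.3% and 60% GC gave 0.66 and 0.66, a difference within their SE, and both B2M probes have 43.3% GC and gave 0.53 and -0.05. The brightest TAPBP probe, of 50% GC, gave 0.51, and the dim ones of 55% and 60% gave 0.17 and 0.08. The dim one of 50% GC gives no fold, since its control channel was not well above background on the arrays of U87 2 Gy. Among all other tested probes, the median log2 ratio in U87 2 Gy went from -0.0059 for probes under 40% GC to 0.08 for probes of 55% or more. In U87 Si306 + 2 Gy it went from 0.01 to 0.05. These are medians over many probes and do not give the spread of single probes. With a smooth curve on GC content removed from each array, 8 and 9 members were higher in PT alone, against 28.6% and 27.9% of all genes, and 8 and 7 lower with Si306, against 28.3% and 27.6%. The part of GC content in the spread among the probes of a gene was not tested.

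**Figure D3:**
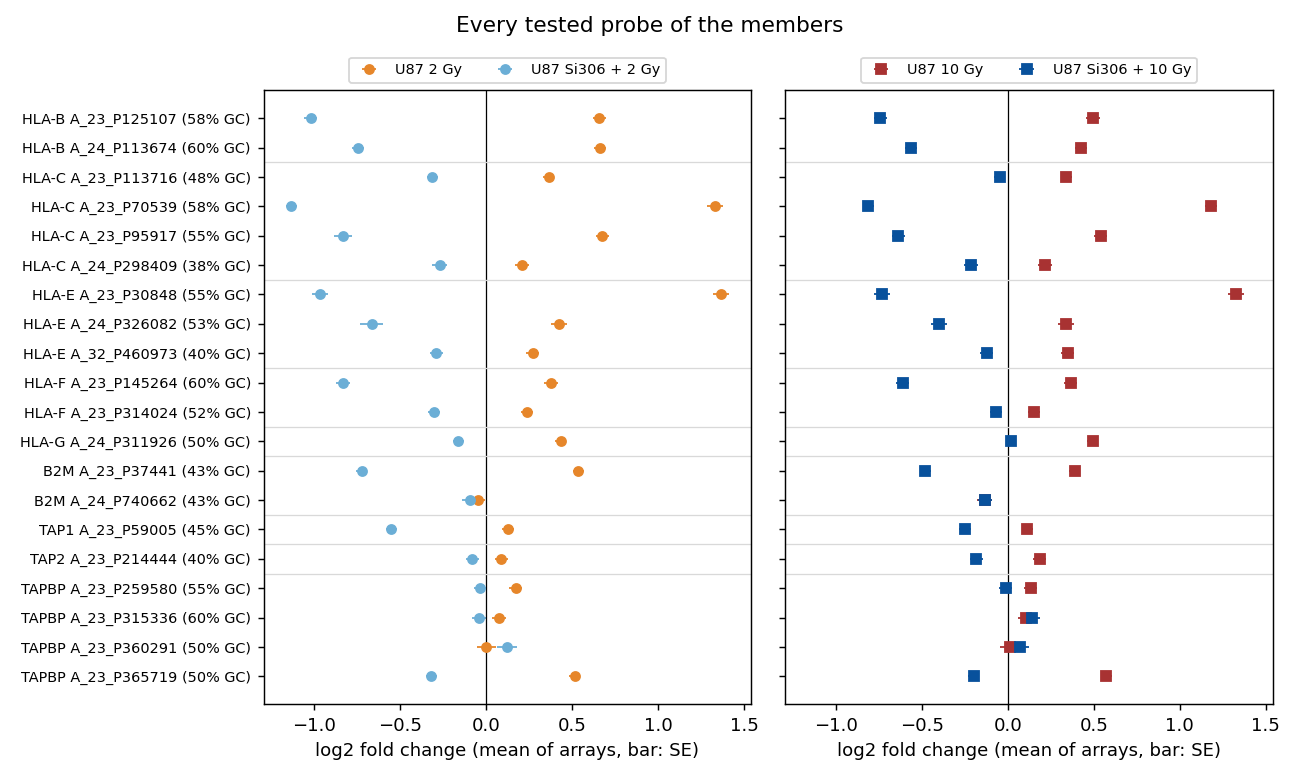
log2 fold change with its SE after loess for each of the 20 tested probes, named by gene, probe and GC content, at 2 Gy on the left and 10 Gy on the right. Points of PT alone lie to the right of 0 and those with Si306 to the left for the probes of the heavy chains other than HLA-G, where U87 Si306 + 10 Gy sits at 0.02, and the dim probes of B2M and TAPBP lie near 0; with median centring the Si306 values of the brightest probes are above 0 except for TAP2.

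For the dose of PT, the members differed little. The difference of U87 10 Gy from U87 2 Gy had a median of -0.02 over the members, and 2 of 9 were called, both lower at 10 Gy, against 11.1% of all genes called lower and 9.86% called higher. HLA-B differed by -0.24 ± 0.048 (adjusted p = 0.00584) and B2M by -0.14 ± 0.044 (adjusted p = 0.0406). With median centring these were -0.37 and -0.26, and with the log ratio of the scanner software they were -0.20 and -0.14, where B2M was not called (adjusted p = 0.053). The differences of the other 7 ran from -0.09 for HLA-F to 0.10 for TAP2. Without array 2 of U87 10 Gy, no member was called, and without any other single array 1 was.

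In the Si306 configurations, the dose difference went the other way with loess. U87 Si306 + 10 Gy was higher than U87 Si306 + 2 Gy in 7 of 9 members, against 10.1% of all genes higher and 12.5% lower, with a median of 0.23 over the members and -0.01 over all genes. TAP1 differed by 0.30 ± 0.045 (adjusted p = 0.00121), HLA-C by 0.27 ± 0.044 (adjusted p = 0.00212) and B2M by 0.24 ± 0.044 (adjusted p = 0.00346). With median centring 5 members were lower at 10 Gy and none higher, against 42.6% of all genes lower, so the direction turned with the scaling. Leaving out 1 array left 3 members called without array 1 of either Si306 configuration, 4 without array 2 of either, and 6 or 7 without an array of PT alone.

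Subtracting the log ratio of PT alone from that of Si306 added to PT at the same dose cancels the dye effect of a probe. The condition of PT alone enters both log ratios, so a rise with PT alone lowers the difference. It is a difference of fold changes, not a fold between 2 samples. In this difference the effect of the slide and that of Si306 cannot be told apart. With loess, the 8 members other than TAP2 were lower at both doses, against 28.8% of all genes lower and 31.7% higher at 2 Gy, and 28.7% and 30.9% at 10 Gy. TAP2 was called lower too, but its control channel was not well above background on 3 of the 4 Si306 arrays, so its differences are not given. The largest loess differences were those of HLA-B, -1.41 ± 0.048 at 2 Gy and -0.99 ± 0.048 at 10 Gy, B2M, -1.26 and -0.87, HLA-E, -1.09 and -0.73, and TAPBP, -0.83 and -0.77. By the brightest probe and with loess, 3 members were called and below -1 at 2 Gy, HLA-B, HLA-E and B2M, against 1.56% of all genes. At 10 Gy none was, against 1.42%. Without array 2 of U87 2 Gy HLA-E was at -0.99 at 2 Gy, and its Si306 value at 2 Gy is that of 1 array. Of the 20 tested probes, 8 were called and below -1 at 2 Gy and 4 at 10 Gy, against 1.6% and 1.39% of all probes. By the log ratio of the scanner software HLA-B was at -1.01 at 10 Gy, where 4.11% of all genes were called and below -1. With median centring HLA-B, HLA-E, B2M and TAPBP were still lower, by -0.81, -0.58, -0.60 and -0.47 at 2 Gy and by -0.73, -0.49, -0.57 and -0.64 at 10 Gy, so none was below -1. Under that scaling 27% and 25% of all genes were lower, HLA-C, HLA-F, HLA-G and TAP1 were not called at either dose, and HLA-C and HLA-G at 2 Gy were at 0.04 and 0.08 and HLA-F at 10 Gy at 0.02.

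The sum of the same log ratios estimates the net change of Si306 and PT against untreated cells, with a dye effect counted in both. For 2 Gy, HLA-G (0.27) and TAPBP (0.19) were higher, and TAP1 (-0.43), HLA-E (-0.25) and B2M (-0.19) lower, 2 and 3 of 9 members, against 41.1% and 26.5% of all genes. For 10 Gy, HLA-G (0.51), TAPBP (0.38) and HLA-C (0.29) were higher, and HLA-B (-0.14) and TAP1 (-0.13) lower, against 38.5% and 27.3% of all genes. Without array 2 of U87 10 Gy the value of HLA-B at 10 Gy was -0.092, and 3 members were called without that array or either array of U87 Si306 + 10 Gy. The value of HLA-E at 2 Gy was -0.15 without array 1 of U87 2 Gy. With the log ratio of the scanner software, HLA-G (-0.032) and HLA-E (-0.15) were not called at 2 Gy and HLA-C was lower (-0.26), and at 10 Gy HLA-C (0.040), HLA-B (-0.010) and TAP1 (-0.055) were not called and B2M was lower (-0.20). The mean of a gene's probes put HLA-E at 0.048 at 2 Gy and 0.25 at 10 Gy. With median centring 8 members were higher at both doses, against 65.1% and 63.7% of all genes, and the signs of HLA-B, HLA-E, B2M and TAP1 turned.

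The proteasome makes the peptides that the transporter carries, and its immunoproteasome subunits PSMB8, PSMB9 and PSMB10 are interferon-inducible. Of 10 proteasome genes tested, 4 were higher and 4 lower in U87 2 Gy and again in U87 10 Gy, against 32.1% of all genes higher and 24.9% lower at 2 Gy and 31.1% and 26.2% at 10 Gy, with medians of 0.04 and -0.02. PSMA7 was 0.36 higher in U87 2 Gy, and PSMB10 was lower by -0.49 with loess and 0.20 higher with median centring. With Si306 and loess, 8 were lower at 2 Gy and 7 at 10 Gy, against 27.8% and 27.1% of all genes, and none was higher, against 38.5% and 35.1%. Their medians were -0.30 and -0.24, whereas with median centring 9 of 10 lay above 0 in both, as 68.6% and 68.4% of all genes did. PSMB9 was lower by -1.08 in U87 Si306 + 2 Gy with loess and by -0.13 with median centring.

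Among 5 aminopeptidases, which trim peptides, 1 was higher and 3 lower with PT alone at 2 Gy and 1 and 1 at 10 Gy, against 32.1% of all genes higher and 24.9% lower at 2 Gy and 31.1% and 26.2% at 10 Gy. In the Si306 configurations with loess they were 1 and 4 at 2 Gy and 1 and 3 at 10 Gy, against 38.5% higher and 27.8% lower and 35.1% and 27.1%. ERAP1, the main trimming enzyme of the endoplasmic reticulum, was lower by -0.38 and -0.40 in PT alone, also with median centring. Its probe was dim, with a mean log2 intensity of 6.79. Of 6 loading chaperones, 4 were higher and 1 lower in U87 2 Gy, 2 and 2 in U87 10 Gy, and 4 and 2 in each Si306 configuration, where their medians were 0.32 and 0.18. The shares of all genes higher were 32.1%, 31.1%, 38.5% and 35.1% in the same order, and those lower 24.9%, 26.2%, 27.8% and 27.1%, so that the count at 10 Gy of PT alone was near the share of all genes. HSPA5, the main chaperone of the endoplasmic reticulum, was 0.38 higher in U87 2 Gy and 0.53 higher in U87 Si306 + 2 Gy, and PDIA3, the thiol oxidoreductase of the loading complex, was 0.37 higher on the 1 array of U87 Si306 + 2 Gy that measured it. Both lay above 0 there with median centring too. PDIA3 was lower by -0.37 and -0.36 in PT alone with loess, and 0.30 and 0.19 higher with median centring.

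Of 18 tested transcription factors and regulators of the class I genes, 6 were higher and 9 lower with PT alone at 2 Gy and 5 and 8 at 10 Gy, against 32.1% of all genes higher and 24.9% lower at 2 Gy and 31.1% and 26.2% at 10 Gy. The number higher was near the share of all genes. With Si306 and loess, 2 were higher and 10 lower at 2 Gy, and 2 and 7 at 10 Gy, against 38.5% and 27.8% and 35.1% and 27.1% of all genes, while with median centring 14 and 15 of the 18 lay above 0, against the same 68.6% and 68.4% of all genes. NLRC5, the coactivator of class I promoters (NOD27 on the array), was 0.34 and 0.25 higher in PT alone and 0.03 and 0.02 with Si306. IRF1, which binds interferon response elements, was 0.24 and 0.22 higher in PT alone, and -0.47 and -0.11 with Si306 and loess, or -0.10 and 0.19 with median centring. USF2 had the highest value in PT alone (0.46 and 0.40), and IRF2, a repressor of interferon response elements, was among the lowest (-0.39 and -0.57 with loess, 0.06 and -0.16 with median centring).

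Of 6 tested interferon receptors and kinases, 1 was higher and 3 lower with PT alone at 2 Gy and 3 and 3 at 10 Gy, against 32.1% of all genes higher and 24.9% lower and 31.1% and 26.2%. In the Si306 configurations with loess the numbers were 3 and 3 at 2 Gy and 1 and 2 at 10 Gy, against 38.5% and 27.8% and 35.1% and 27.1% of all genes. JAK2 was lower by -0.49 in U87 2 Gy, and IFNAR1 and IFNGR1, receptor chains for interferons, were 0.39 and 0.38 higher in U87 10 Gy. The genes of interferon beta and gamma were at background. Class I-like molecules, such as MICB and MR1, were 5 of 9 higher in U87 2 Gy and 7 of 9 in U87 10 Gy, against 32.1% and 31.1% of all genes, with none lower, against 24.9% and 26.2%. Once Si306 was added, and with loess, they were 6 and 5 higher, against 38.5% and 35.1%, and 1 lower each, against 27.8% and 27.1%, and their medians of 0.16 and 0.17 had the other sign from those of the members under loess.

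Class II molecules present peptides to helper T cells. The 10 genes tested comprise chains and peptide exchange factors encoded in the same gene complex as the class I heavy chains, and CD74, the invariant chain, and CIITA, the class II transactivator, which lie outside it. They were lower with Si306 under every scaling described for the members above, by their medians. Of the 10, 9 were lower at 2 Gy and 8 at 10 Gy with loess, against 27.8% and 27.1% of all genes, and none was higher, against 38.5% and 35.1%, with medians of -0.92 and -0.65 with loess and -0.49 and -0.34 with median centring. HLA-DRB1 was lower by -1.59 and -1.51, HLA-DPB1 by -1.50 and -1.43, HLA-DPA1 by -1.18 and -0.92, and HLA-DRA by -1.03 and -0.62. In PT alone their medians were 0.00 and -0.02. At 2 Gy 4 were higher and 2 lower, against 32.1% and 24.9% of all genes, and at 10 Gy 2 and 2, against 31.1% and 26.2%. These counts were near the shares of all genes. Among 7 leukocyte markers, PTPRC and MS4A1 were at background, and ITGAM was not called in the Si306 configurations. CD3E (0.13 and 0.21) and CD14 (0.12 and 0.11) were higher there with loess, though CD3E was at -0.19 at 2 Gy with median centring, while LYZ was lower by -0.97 and -0.95 in the Si306 configurations with loess and by -0.20 and -0.43 with median centring. The part of these in the class II values was not tested.

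**Figure D4:**
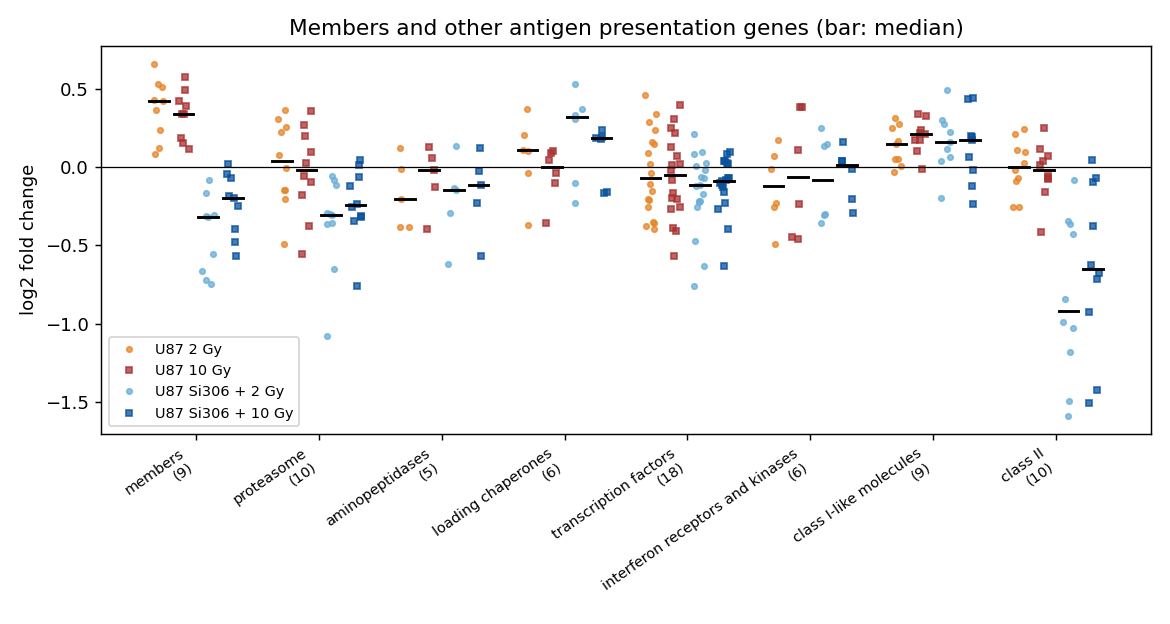
log2 fold change after loess of the 9 members and of the tested genes of 7 other groups of antigen presentation in the 4 configurations; each point is a gene and each bar the median of its group, with the number of genes under the group's name. The members' medians are 0.42 and 0.34 in PT alone and -0.32 and -0.20 with Si306, the latter of the other sign with median centring, and the class II medians with Si306 are -0.92 and -0.65.

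Promoter sequence is shown because several members share known response elements. RefSeq windows of 300 bases in GRCh38.p14, from 250 before to 50 after a start, were at hand for 8 of 9 members. Both strands were searched for the long interferon element (GAAA, any 2 bases, GAAA), its shorter form GAANNGAAA, a kappa-B site (GGG, any 2 bases, TT, any base, CC) and a CCAAT box. An interferon element of either form stood in the windows of 7 of the 8 members, HLA-B, HLA-C, HLA-F, B2M, TAP1, TAP2 and TAPBP, in 7 of the 11 windows of the 8 members, against 10.6% of 35116 windows, and the forms overlap in TAP2. The kappa-B letters stood in those of HLA-B, B2M, TAP1 and TAPBP, in 4 of the 11 windows against 5.68%, and CCAAT in those of 6 members, 6 of the 11 windows, against 34.6%. No HLA-G window held an interferon element. Capitals mark interferon and kappa-B matches, 5′ to 3′ on the strand of the gene.
HLA-B (minus strand, chr6:31357302-31357361): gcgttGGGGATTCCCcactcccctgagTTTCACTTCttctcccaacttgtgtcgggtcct
HLA-C (minus strand, chr6:31272211-31272270): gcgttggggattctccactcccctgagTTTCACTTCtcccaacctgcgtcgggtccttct
HLA-F (plus strand, chr6:29723256-29723315): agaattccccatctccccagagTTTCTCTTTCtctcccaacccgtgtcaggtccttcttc
HLA-G (plus strand, chr6:29827643-29827702): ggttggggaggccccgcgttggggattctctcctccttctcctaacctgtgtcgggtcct
B2M (plus strand, chr15:44711367-44711426): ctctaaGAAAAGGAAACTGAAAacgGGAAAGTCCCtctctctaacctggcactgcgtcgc
TAP1 (minus strand, chr6:32853763-32853842): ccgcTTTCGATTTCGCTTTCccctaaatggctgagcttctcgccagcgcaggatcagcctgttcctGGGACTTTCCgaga
TAP2 (minus strand, chr6:32838765-32838814): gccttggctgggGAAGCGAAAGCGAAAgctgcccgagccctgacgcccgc
TAPBP (minus strand, chr6:33314079-33314138): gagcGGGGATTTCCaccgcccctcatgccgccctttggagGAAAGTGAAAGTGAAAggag
HLA-B and HLA-C hold the short element at nearly the same place, its first base at -155 and -151 from their starts. The part of these elements in the members' changes was not tested.

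The members' median profile was 0.36 and 0.44 with PT alone at 2 Gy and 0.36 and 0.38 at 10 Gy, and -0.32 and -0.34 with Si306 added at 2 Gy and -0.21 and -0.25 at 10 Gy. Of 21276 other names measured on all 8 arrays, the 5 closest to it by root mean square difference were C9orf140 (0.0427), GPR89A (0.0434), SEPT9 (0.0446), CDK10 (0.0486) and ELAC2 (0.0534). All 5 were nearer to this profile than any member, of which HLA-C (0.0994) and TAPBP (0.12) came closest and HLA-B (0.301) lay farthest. The configurations share the condition of PT alone, and the likeness is a description.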

How the data were processed

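The members and gene lists were chosen with earlier results of these data known. The deposited scanner tables (Agilent Feature Extraction 9.5.3.1) hold, for each spot, mean intensity and local background of both dyes and a log10 ratio made by the authors' software, and the deposited series matrix holds the same log10 ratio rounded. Of 24 scans, 22 were used. Outliers (2.98% to 5.73% of spots) were left out, a choice made after seeing the data. Intensities were corrected by normexp (offset 50), log2 ratios normalized by loess within scans, and spots, then scans of an array, averaged. Probes were kept where 1 or both dyes stood well above background on 2/3 or more of the arrays of a configuration. The brightest probe stood for its name (22932 names), and 20 of 23 probes of the members passed. Limma 3.58.1 (R 4.3.3, statmod 1.5.0) was fitted to 8 arrays, with Benjamini-Hochberg adjustment over all genes. The named genes were the members, pathway genes past 2-fold or otherwise the 3 highest and 3 lowest of a configuration, the 5 nearest names, CDKN1A and MDM2; ERAP1, NLRC5, IRF1, PDIA3, MICB, MR1, IFNB1, IFNG, CDKN2A, LYZ, CD3E, CD14, ITGAM, PTPRC and MS4A1 were named after their values were seen. On simulated data, log2 changes of 0.3 were recovered in 45 of 67 genes for U87 2 Gy, 41 of 67 for U87 10 Gy, 41 of 66 for U87 Si306 + 2 Gy and 51 of 67 for U87 Si306 + 10 Gy, those of 0.6 in 66 of 67, 67 of 67, 65 of 67 and 64 of 65, and all of 1.2, with 99, 94, 83 and 109 false calls. The median estimate was 0.66 to 0.81 of the true size over all changed genes. It was 0.69 to 1.12 among those with a mean log2 intensity of 10 or more. The number of arrays limits the precision.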

Additional observations from a re-analysis of the deposited data

Results flagged for a closer look

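The differences between doses that passed the test are listed here, since the effect of the same contrast differed between 2 and 10 Gy. In PT alone, the 10 Gy log ratio was below that at 2 Gy by -0.24 for HLA-B and by -0.14 for B2M. In the Si306 configurations the 10 Gy log ratio was above that at 2 Gy, with loess, by 0.18 for HLA-B, 0.27 for HLA-C, 0.27 for HLA-E, 0.23 for HLA-F, 0.18 for HLA-G, 0.24 for B2M and 0.30 for TAP1, and below it for each of these genes with median centring. For HLA-E the value at 2 Gy with Si306 came from 1 array. By the log ratio of the scanner software, the differences of B2M in PT alone and of HLA-E with Si306 were not called.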

How the results depend on the processing

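Over 28 alternative settings and 2473 values of single members, 2204 kept their direction and their side of the threshold, 188 lost the call, 36 gained one and 45 reversed, 36 of these with median centring. Median centring gave 5 members called in each difference of Si306 from PT alone, 9 and 8 in the net sums at 2 and 10 Gy, and these reversed values. For U87 Si306 + 2 Gy they were HLA-B 0.57, HLA-C 1.19, HLA-E 0.54, HLA-F 0.91, HLA-G 1.28, B2M 0.66, TAP1 0.65 and TAPBP 0.58, and for U87 Si306 + 10 Gy HLA-B 0.29, HLA-C 0.96, HLA-E 0.43, HLA-F 0.75, B2M 0.44, TAP1 0.52 and TAPBP 0.39. For the Si306 dose difference they were HLA-B -0.28, HLA-C -0.22, HLA-E -0.11, HLA-F -0.16, HLA-G -0.29, B2M -0.23, TAP1 -0.13 and TAPBP -0.19. For the difference of Si306 from PT alone they were HLA-C 0.040 and HLA-G 0.083 at 2 Gy and HLA-F 0.021 at 10 Gy. For the net sums they were HLA-B 1.96, HLA-E 1.66, HLA-F 1.84, B2M 1.93, TAP1 1.40 and TAP2 -0.30 at 2 Gy, the last of which rests on control channels not well above background and gives no fold, and HLA-B 1.31, HLA-E 1.35, B2M 1.44 and TAP1 1.16 at 10 Gy. The scanner software's log ratio reversed HLA-G in U87 Si306 + 10 Gy (-0.18) and, in the net sum at 2 Gy, HLA-C (-0.26) and HLA-G (-0.032), and so did the series matrix (-0.18, -0.26 and -0.033). The mean of a gene's probes reversed TAPBP in U87 Si306 + 10 Gy (0.0004) and HLA-E in the net sums (0.048 and 0.25). The cause was not tested.

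With loess and a 2-fold limit, 1 on the log2 scale, 3 members were called by their brightest probe in the difference of Si306 from PT alone at 2 Gy. In any configuration, dose difference, difference at 10 Gy or net sum 0 were, whereas limma without that limit called 2 to 9. With median centring 6, 4 and 2 members passed it in U87 2 Gy, U87 10 Gy and U87 Si306 + 2 Gy, against 4.88%, 3.36% and 18% of all genes. In the net sums 8 passed at each dose, against 41.2% and 27.9%. By the log ratio of the scanner software 1 passed in the difference at 10 Gy, against 4.11%. For the dose difference of PT alone, 1 member was called with the scanner software's log ratio, the series matrix, no filter on dim probes, the mean of probes, the first scan of each array or each slide fitted on its own, and 0 with outlier spots kept, normexp on every spot or both arrays with a discordant scan left out. Outlier spots kept gave 1 member for the Si306 dose difference and 3 and 2 for the net sums, and normexp on every spot, added after seeing the data, 1, 2 and 1. The net sum at 10 Gy had 3 members called by both versions of the scanner software's log ratio and without the discordant arrays. Counting 24 scans as labelled gave 8 for the net sum at 2 Gy. Leaving out single arrays reversed 0 of 716 values and gave 0 to 1 members for the dose difference of PT alone, 3 to 7 for that with Si306 and 3 to 5 for the net sum at 10 Gy. Replicate numbers did not pair the samples (median r of deviations 6.4e-05 over 30 same-number pairs). A replicate block over 22 scans gave 8 and 9 members in PT alone, 8 and 7 with Si306, 2 and 8 for the dose differences, 9 and 9 for the differences from PT alone, and 5 and 7 for the net sums.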
